A study of Mus musculus with 32 samples.

Results

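Single Agrp and Npy neurons from the median eminence (ME) of mice are described here. They were chosen by their counts of unique molecular identifiers (UMIs, each of which marks 1 captured transcript): at least 20 UMIs of the neuronal genes Snap25, Syt1, Stmn2 and Stmn3 together, under 20 UMIs of Cga, and at least 30 UMIs each of Agrp and Npy. The rule found 58 cells among 437 neurons, which were 13.3% of the neurons (exact Clopper-Pearson interval 10.2 to 16.8%) and 0.970% (0.737 to 1.25%) of all 5982 cells. The other 379 neurons passed the first 2 conditions only and served for comparison.

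The ME came from male C57B/L6 mice of 40 to 47 days, with no transgene named in the labels. 5 mice were fasted overnight (16 h), and the other 5 had the same fast followed by 1 h of refeeding with normal chow, so that every animal had been fasted and no group was fed ad libitum. The tissue of each group was pooled, live cells were sorted on a DNA dye and a viability dye, and each pool was split over 2 droplet libraries. Cell barcodes carried a number from 1 to 4 that no source used here ties to a library or to a feeding state, so fasted and refed cells cannot be told apart, and all values are for both together.

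Agrp and Npy neurons lie in the arcuate nucleus beside the ME and drive feeding. Agrp is an antagonist of the melanocortin receptors on which Pomc peptides act, Npy is a peptide that stimulates feeding through its own receptors, and the cells also release the inhibitory transmitter GABA. They sense leptin, ghrelin, insulin and other signals of energy stores that reach them through the leaky vessels of the ME, and their activity is known to be high in the fasted animal.

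Among the 5982 cells, barcode numbers 1 to 4 held between 1359 and 1642 cells and between 6508038 and 7806887 UMIs. The 58 neurons were spread over all barcode numbers, with 14, 10, 20 and 14 cells, or 15.9%, 14.7%, 13.99% and 10.1% of the neurons of each number. Their depth was 9276 to 25054 UMIs per cell with a median of 18833, above the median of 13571 UMIs of the other neurons. 42 cells shared a barcode sequence across numbers, and 0 of them were Agrp and Npy neurons. Doublet calling marked 50 cells in all, of which 0 were Agrp and Npy neurons and 5 were other neurons.

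Markers of other cell types were low in the Agrp and Npy neurons. All 8 genes of the mature oligodendrocyte list had UMIs, with a sum of 3 to 35 UMIs per cell (median 15), against 1 to 671 in the other neurons. The list for oligodendrocyte precursors had 1 of its 5 genes at 0 UMIs and at most 2 UMIs per cell. The microglial list had 0 to 10 UMIs per cell, the astrocyte list 0 to 14, the tanycyte list 3 to 24 and the endothelial list 0 to 3. The medians of these lists were 4, 5, 9 and 0 UMIs, against 2, 4, 13 and 0 in the other neurons. All 58 cells had at least 1 UMI of the GABAergic genes Slc32a1, Gad1 and Gad2, with a lowest sum of 4 and a median of 14. These 3 genes were not used by the rule, and they put the cells among the GABAergic neurons.

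Agrp (ENSMUSG00000005705, chr8:105566698-105637393, minus strand, GRCm38) ranged from 69 to 543 UMIs per member cell, with a median of 202.5. Npy (ENSMUSG00000029819, chr6:49822710-49829507, plus strand) ranged from 86 to 988 UMIs, with a median of 372.5. These values chose the cells and are given as a description. The lowest members lay well inside the threshold of 30 UMIs, so no member was close to it.

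The group levels were 11604 UMIs per 1000000 UMIs (CPM) for Agrp and 20245 CPM for Npy. Agrp and Npy together made up 3.18% of all UMIs of these cells, from 1.41% in the lowest cell to 6.11% in the highest. Npy UMIs exceeded Agrp UMIs in 51 of the 58 cells (87.9%). The libraries count 3′ ends, so a UMI count does not scale with transcript length. The ratio of Npy to Agrp UMIs ran from 0.483 to 4.77 with a median of 1.79. Across the 58 cells, the CPM of both genes had a Pearson r of 0.546 and a Spearman rho of 0.543, and the cells share libraries and pools of mice.

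**Figure D1:**
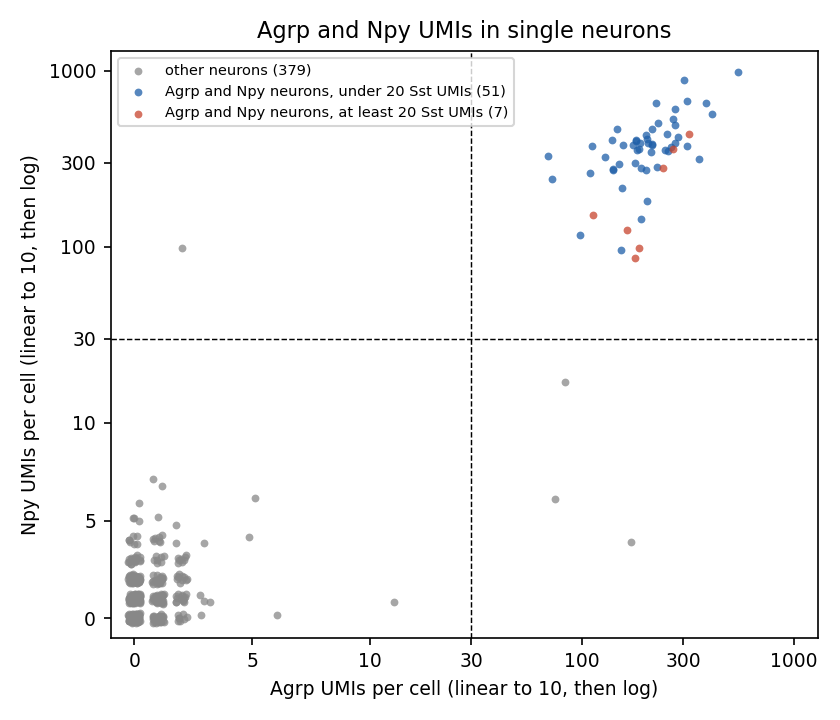
Agrp UMIs (horizontal axis) against Npy UMIs (vertical axis) in each of the 437 neurons, on axes that are linear to 10 and logarithmic above, with points under 10 jittered. Dashed lines mark 30 UMIs. The 58 Agrp and Npy neurons lie at 69 or more Agrp and 86 or more Npy UMIs, 374 other neurons have under 10 UMIs of both genes, and red points are the 7 members with at least 20 Sst UMIs.

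The neurons just outside the rule were few. 374 of the 379 other neurons had under 10 UMIs of both genes. 3 other neurons passed the Agrp threshold alone, with 171, 83 and 75 Agrp UMIs beside 4, 17 and 6 Npy UMIs. 1 other neuron passed the Npy threshold alone, with 98 Npy and 2 Agrp UMIs. 3 of these 4 cells were rich in Sst, the gene of the peptide somatostatin, with 256, 243 and 175 UMIs. The remaining cell, with 83 Agrp and 17 Npy UMIs, held 163 UMIs of Cartpt and 12 of Pomc, which mark the arcuate neurons with the opposite role in feeding. A further 5 cells had at least 30 UMIs of both peptide genes and failed on the neuronal genes alone, with 6, 9, 17, 19 and 6 UMIs of the 4 genes. 3 of these cells were shallow, with 5541, 7780 and 5121 UMIs.

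The 58 cells held 84.0% (83.4 to 84.6%) of the 14825 Agrp UMIs and 82.6% (82.1 to 83.0%) of the 26317 Npy UMIs of the whole data set. All intervals account for counting error alone and treat the UMIs within a cell as independent, which they are not. Outside neurons, the same 2 genes gave low counts in cell types that are not known to express Agrp. Mature oligodendrocytes (670 cells, median depth 6165 UMIs) had an Agrp UMI in 19.3% of cells, at 32.6 CPM, and an Npy UMI in 36.3%, at 68.1 CPM. Microglia (522 cells, median depth 3096.5 UMIs) had 38.3 CPM of Agrp and 74.9 CPM of Npy. In the other neurons Agrp was at 111 CPM, with a median of 0 UMIs per cell, and Npy at 123 CPM, with a median of 1. After each cell was thinned to 5000 UMIs, Agrp was seen in 18.04% of other neurons and 15.8% of oligodendrocytes. Whether the Agrp UMIs of these cells are background or expression was not tested.

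The rule made both peptide genes high in every member, so their levels by barcode number are a description. Agrp was at 12373, 10701, 12270 and 10547 CPM in the members of numbers 1 to 4, and Npy at 23312, 18946, 20948 and 17262 CPM. Number 1 was the highest and number 4 the lowest for both genes. For Npy their intervals of counting error, 22718 to 23918 and 16769 to 17766 CPM, did not overlap. Nor did those for Agrp, at 11941 to 12817 and 10162 to 10942 CPM. Single cells did overlap, at 86 to 675 Npy UMIs (median 396) in number 1 and 96 to 988 (median 325.5) in number 4.

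Of 9439 genes with at least 50 UMIs over both groups, 78 were at least 2-fold higher in the Agrp and Npy neurons than in the other neurons (0.826% of genes) and 302 were at least 2-fold lower (3.2%). Ratios were taken as log2 of CPM plus a pseudocount of 10 CPM, which draws in the ratios of low genes. The median over all tested genes was -0.12. Cells could not be tied to samples, so the matrix counted as 1 sample without replicates and no test was run. A gene counted as higher or lower only describes these cells, and the 2 shares are the background for the counts of each gene list.

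The 20 genes with the highest ratios, after genes with ratios in the other direction within any barcode number had been left out, included receptors, a transcription factor and secreted proteins. Acvr1c led, then Gm8773, Serpina3n, Ghr, Alkal2, Cited1, Npy2r, Otp, Rbp4 and Irs4, with log2 ratios from 3.71 down to 2.13. The others, with log2 ratios of 2.01 to 1.67, were Krt90, Vwa5a, Pcdh20, Pgr15l, Arhgef28, Vgf, Ociad2, Socs2, Shisal2b and Cd24a. Vwa5a and Arhgef28 also had 15.8 and 59.0 CPM in mature oligodendrocytes, and the part of such cells in their ratio was not tested.

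**Figure D2:**
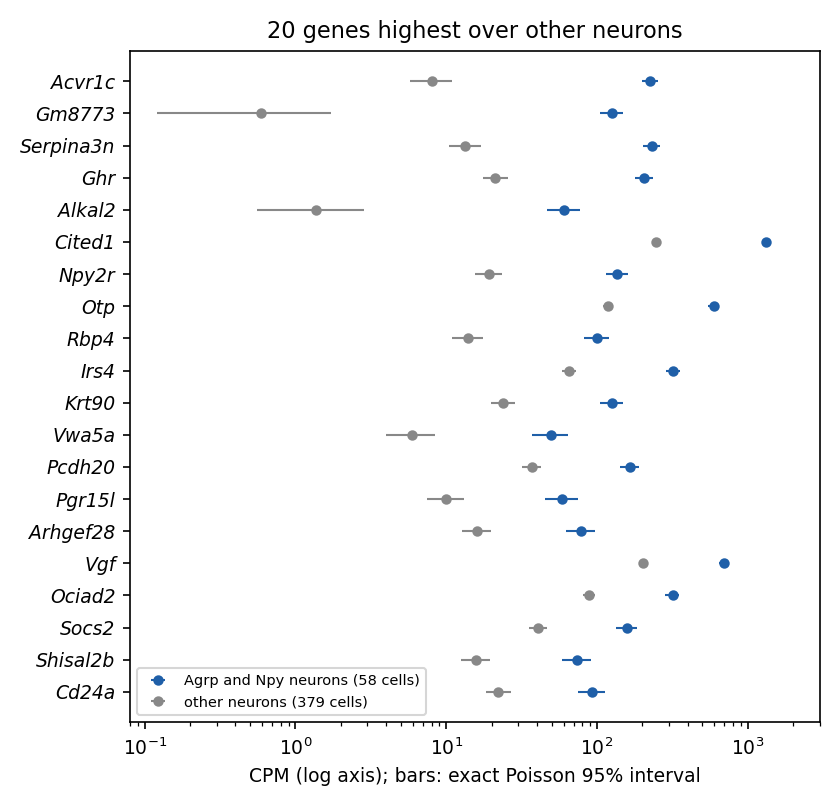
CPM on a logarithmic axis of the 20 genes with the highest ratio, in the Agrp and Npy neurons (blue, 58 cells) and the other neurons (grey, 379 cells); bars are exact Poisson intervals at the 95% level. Levels run from Acvr1c at 225 against 8.05 CPM to Cd24a at 92.2 against 22.2 CPM. The genes were chosen for high ratios of these same counts, so that the blue and grey bars lie apart is no test.

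Promoter sequences are shown for Npy, which defines the cells, and for Gm8773 and Alkal2, which were nearly absent from the other neurons. They run from 250 bases before to 50 bases after the start of the gene in RefSeq (GRCm38.p6), all on the plus strand, 5′ to 3′. Capitals mark a match to 1 of 5 short motifs that were searched on both strands: TAATTA (homeodomain factors such as Otp), TTCNNNGAA (STAT factors), GTAAACA (forkhead factors such as Foxo1), TATAAA (a core promoter box) and TGACGTCA (CREB). Npy lies at chr6:49822460-49822759, Gm8773 at chr5:5573754-5574053 and Alkal2 at chr12:30884074-30884373.
Npy: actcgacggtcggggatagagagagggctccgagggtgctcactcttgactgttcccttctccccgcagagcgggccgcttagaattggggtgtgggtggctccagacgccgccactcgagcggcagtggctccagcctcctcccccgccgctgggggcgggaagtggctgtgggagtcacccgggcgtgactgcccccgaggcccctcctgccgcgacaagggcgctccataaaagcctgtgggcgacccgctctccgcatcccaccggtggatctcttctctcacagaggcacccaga
Gm8773: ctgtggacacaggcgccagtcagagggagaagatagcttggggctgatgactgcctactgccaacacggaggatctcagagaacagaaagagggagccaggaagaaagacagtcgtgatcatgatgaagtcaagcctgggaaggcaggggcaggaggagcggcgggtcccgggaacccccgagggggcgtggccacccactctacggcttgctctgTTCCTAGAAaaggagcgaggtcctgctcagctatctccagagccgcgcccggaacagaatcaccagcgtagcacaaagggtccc
Alkal2: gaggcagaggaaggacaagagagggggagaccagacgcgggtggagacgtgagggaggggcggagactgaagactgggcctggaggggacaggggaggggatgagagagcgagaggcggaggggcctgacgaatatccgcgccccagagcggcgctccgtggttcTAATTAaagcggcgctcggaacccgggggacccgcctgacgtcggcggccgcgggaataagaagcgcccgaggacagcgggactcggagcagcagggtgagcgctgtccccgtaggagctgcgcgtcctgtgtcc
Npy held none of these letters in this window. Gm8773 held TTCNNNGAA with its first base at position -34 from the RefSeq start, and Alkal2 held TAATTA at position -85. The GENCODE annotation, used for the gene positions given here, begins Gm8773 earlier within this window. The match in Gm8773 is thus upstream of the start by RefSeq only, and lies inside the gene by GENCODE. Of the 20 genes and Npy, 17 of 21 had a promoter in the table. Among these 17, TAATTA was found in 1 (in 5.31% of all 27025 promoters), TTCNNNGAA in 1 (8.47%), GTAAACA in 1 (3.55%, Rbp4), TATAAA in 2 (14.2%, Ociad2 and Cited1) and TGACGTCA in 0 (1.88%). A match describes the letters only.

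A few receptors for signals of energy balance had some of the highest ratios. Of 11 receptor genes with enough UMIs, 3 (Acvr1c, Ghr and Npy2r) were at least 2-fold higher and 1 was lower. The median log2 ratio was -0.05, near the -0.12 over all genes. Acvr1c and Npy2r were also listed as known from the literature to be enriched in Agrp neurons, so they are no independent result. Acvr1c, a type I receptor of the TGF-β family (ENSMUSG00000026834, chr2:58267453-58357895, minus strand), had 0 to 11 UMIs per cell with a median of 4. It was at 225 CPM (198 to 256) in the Agrp and Npy neurons and 8.05 CPM (5.78 to 10.9) in the other neurons, a ratio of 28.0. It was seen in 53 of the 58 cells and, after thinning to 5000 UMIs, in 60.3% of them, 3.98% of other neurons and 0.531% of oligodendrocytes. Within each barcode number the members had 181 to 288 CPM of Acvr1c and the other neurons 5.57 to 10.2 CPM, a direction that the choice of named genes required. Single cells overlapped, since other neurons had up to 4 UMIs.

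Ghr, the growth hormone receptor, was at 205 CPM (179 to 234) against 21.2 CPM (17.4 to 25.6), a ratio of 9.66 (7.64 to 12.3). It had a UMI in 57 of the 58 cells, and its CPM by barcode number ran from 178 to 243. Socs2, which restrains signalling by this receptor, was at 157 against 40.6 CPM, a ratio of 3.87 (3.14 to 4.77). Socs2 was uneven between barcode numbers, at 79.9, 50.9, 220 and 212 CPM in the Agrp and Npy neurons and at 23.5, 29.95, 48.3 and 48.3 CPM in the other neurons. Numbers 3 and 4 were thus the higher in both groups.

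Npy2r, the receptor by which Npy neurons sense their own peptide, was at 136 CPM (115 to 160) against 19.2 CPM (15.6 to 23.5), a ratio of 7.07 (5.43 to 9.22). The other Npy receptors did not share this. Npy1r was at 25.1 against 45.0 CPM and Npy5r at 13.04 against 21.4 CPM, and neither passed 2-fold. The calcitonin receptor Calcr, at 41.9 against 16.1 CPM, had a log2 ratio of 0.99, just under the limit, and passed it without barcode number 3 (1.26). Prlr, the prolactin receptor, was the receptor that was lower, at 14.9 against 76.0 CPM.

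The receptors for leptin and ghrelin were low. Lepr had 21 UMIs in 17 of the 58 cells (19.6 CPM, 12.1 to 29.9) against 15 UMIs in the 379 other neurons (2.95 CPM, 1.65 to 4.86), a ratio of 6.64 (3.26 to 13.8). Ghsr had 21 UMIs in 15 cells against 16 UMIs, a ratio of 6.23 (3.10 to 12.8). Both fell under the minimum of 50 UMIs and are not among the 78 genes, but their intervals lay above 1. After thinning, 10.3% of the Agrp and Npy neurons had a Lepr UMI, against 0.796% of other neurons and 1.06% of oligodendrocytes. Glp1r had 0 UMIs in both groups, and Mc4r had 0 UMIs in the members and 15 in the other neurons, which was not enough to tell a difference at this depth.

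Genes that act downstream of leptin and insulin showed 1 large difference. Irs4, an insulin receptor substrate, was at 319 CPM (287 to 355) against 65.2 CPM (58.4 to 72.6), a ratio of 4.90 (4.20 to 5.72), and was the only member of 14 tested to pass 2-fold. The median log2 ratio of the list was 0.14. After thinning, Ptpn1, a phosphatase that acts on both pathways, also passed, with a log2 ratio of 1.02. Irs2 was at 66.1 against 45.0 CPM. Socs3, a feedback inhibitor of leptin signalling, was at 20.5 against 6.87 CPM with a log2 ratio of 0.85 (0.14 after thinning to 5000 UMIs). None of the 11 tested genes of cellular energy sensing passed 2-fold in either direction, with log2 ratios from -0.66 to 0.50. After thinning, Cpt1c, a brain form of carnitine palmitoyltransferase, was lower, with a log2 ratio of -1.04. Ucp2, a mitochondrial carrier, was at 148 against 102 CPM.

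Of 19 tested transcription factors, 3 were at least 2-fold higher, 8 were lower and 8 lay in between, with a median log2 ratio of -0.23. Otp, a homeodomain factor of the developing hypothalamus, was in all 58 cells at 4 to 18 UMIs, with a median of 11. Its level was 593 CPM (548 to 641) against 119 CPM (109 to 128), and after thinning it was seen in 94.8% of the Agrp and Npy neurons, 19.4% of other neurons and 1.24% of oligodendrocytes. Its log2 ratio was 2.23, and 1.59 against the other neurons of at least 15000 UMIs. Foxo1, which insulin signalling keeps out of the nucleus, was at 72.7 against 19.0 CPM, a ratio of 3.81 (2.79 to 5.19). Stat3, which carries the leptin signal to the nucleus, was at 94.1 against 35.3 CPM, a ratio of 2.66 (2.07 to 3.41), but was also at 45.8 CPM in oligodendrocytes.

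The lower factors included the Dlx family of forebrain GABAergic neurons and Nkx2-1, a factor of the ventral hypothalamus. Dlx2 had 0 UMIs in the Agrp and Npy neurons and 214 in the other neurons, so it was at least 15.0-fold lower, with a count of 0 read as up to 3 UMIs over the group. Dlx6 and Lhx1 also had 0 UMIs and were at least 7.38-fold and 8.22-fold lower. Against the other neurons of at least 15000 UMIs, Lhx1 no longer passed 2-fold, with a log2 ratio of -0.51. Dlx1 had 1 UMI against 266. Nkx2-1 was at 5.59 against 88.4 CPM, a level 15.8-fold lower (7.21 to 43.3). Isl1, Tbx3, Six6 and Sox11 differed by less than 2-fold, with log2 ratios of 0.28, 0.39, -0.18 and -0.23.

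The transmitter genes gave an inhibitory profile. Without thinning, all 6 genes of GABA handling were within 2-fold of the other neurons, with a median log2 ratio of -0.30. Gad1 and Gad2, which make GABA, were at 259 and 376 CPM against 299 and 403 CPM. Slc32a1, which loads GABA into vesicles, was at 123 against 196 CPM. Slc17a6, which loads glutamate, had 2 UMIs in the 58 cells against 454 in the other neurons, a level 47.9-fold lower (13.2 to 396). Its log2 ratio was -3.06, and -1.92 against only those other neurons that had at least 2 UMIs of the GABAergic genes.

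Peptide genes other than Agrp and Npy were mostly lower. Of 16 other neuropeptide genes with enough UMIs, 12 were at least 2-fold lower and 0 were higher, with a median log2 ratio of -2.12 against -0.12 over all genes. Against the other neurons of at least 15000 UMIs, 10 of 12 were lower. Vip had too few UMIs there, at a log2 ratio of 0.23, and Cck was at -0.28. Against the other neurons with GABAergic genes, 13 of 15 were lower. Adcyap1, at -0.15 before, was at 1.14 there with too few UMIs to be counted. Tac2, of neurokinin B, was at 8.38 against 545 CPM, with a log2 ratio of -4.92 that was -3.55 against the other neurons with GABAergic genes. Ghrh, of growth hormone-releasing hormone, had 2 UMIs against 1493. Gal was at 37.3 against 710 CPM and Tac1 had 3 UMIs against 1286. The other neurons are a mixture of cells, and these peptides mark some of them. Genes of other kinds among the 10 lowest were Crabp1, a binding protein of retinoic acid (log2 ratio -4.40), the calcium-binding proteins Vsnl1 (-3.46) and Calb1 (-3.05), and Cox6a2, a subunit of cytochrome oxidase (-3.18). Nts, of neurotensin, was at 24.2 against 14.3 CPM and was seen in 5 of the 58 cells, with a log2 ratio of 0.49 that turned to -0.80 without barcode number 3.

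Avp, of vasopressin, was at 51.2 against 1628 CPM, with a log2 ratio of -4.74. In the other neurons Avp was at 17.3, 416, 864 and 3860 CPM in numbers 1 to 4, and in the Agrp and Npy neurons at 15.99, 28.3, 39.7 and 115 CPM. Number 4 was the highest and number 1 the lowest in both groups, and without number 4 the log2 ratio was -3.72. 58.6% of the Agrp and Npy neurons had an Avp UMI, but never more than 4. After thinning the share was 20.7%, close to the 18.4% of oligodendrocytes, and whether these UMIs are background was not tested.

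Pomc and Cartpt, which mark the arcuate neurons with the opposite role in feeding, were both at a lower CPM. Pomc was at 48.4 CPM (36.2 to 63.5) against 237 CPM (224 to 251), and no member had more than 9 UMIs. Its log2 ratio of -2.08 was -1.36 after thinning and -2.84 against the other neurons of at least 15000 UMIs. Cartpt was at 350 CPM (316 to 387) against 773 CPM (749 to 798), with a log2 ratio of -1.12. Without barcode number 3 this was -0.81, and without the 7 cells rich in Sst it was -0.96, so the call of 2-fold was lost in both. Cartpt was nevertheless seen in 58.6% of the thinned Agrp and Npy neurons, against 31.8% of other neurons and 5.84% of oligodendrocytes, with up to 31 UMIs in a member.

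**Figure D3:**
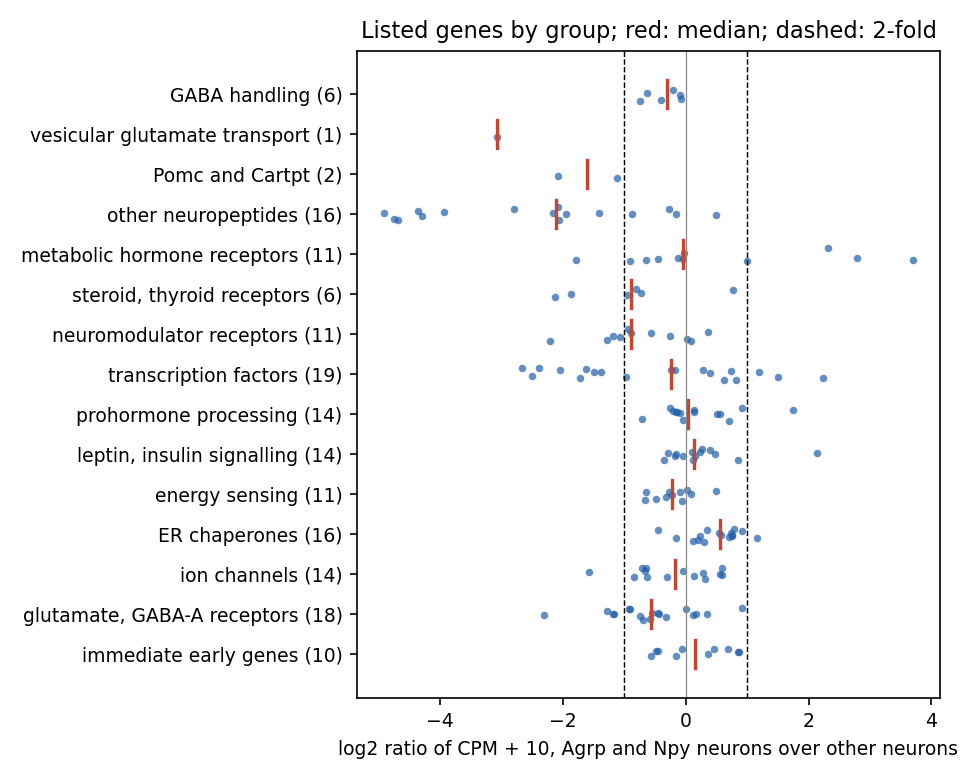
Log2 ratio of CPM plus 10 CPM in Agrp and Npy neurons over other neurons, for each tested gene of 15 lists (number tested in parentheses). Red marks are list medians and dashed lines mark 2-fold. The 16 other neuropeptides centre on -2.12, the 3 high receptors are Acvr1c, Ghr and Npy2r, and 14 of 16 chaperones lie above 0.

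The machinery that makes and packs peptides was present at levels like those of the other neurons. Of 14 genes of prohormone processing and secretory granules, 1 was at least 2-fold higher and 0 were lower, with a median log2 ratio of 0.05. That gene was Vgf, a granule protein that is cut into peptides, at 695 CPM (646 to 747) against 201 CPM (189 to 213). Vgf varied between cells from 0 to 89 UMIs with a median of 9, and between barcode numbers at 1007, 328, 707 and 628 CPM. In number 4, 89 of 169 Vgf UMIs came from 1 cell, without which that value was 327.8 CPM. Pcsk1n and Resp18 were abundant in both groups, at 5844 and 5448 CPM in the Agrp and Npy neurons against 3964 and 2892 CPM. The convertases Pcsk1 and Pcsk2 were at 41.0 against 21.4 CPM and 121 against 147 CPM.

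Chaperones of the endoplasmic reticulum leaned to the high side. Of 16 genes, 14 had log2 ratios above 0, with a median of 0.57 against -0.12 over all genes, but only Manf passed 2-fold, at 527 against 230 CPM (ratio 2.30, 2.07 to 2.54). Hspa5, the main chaperone of this compartment, was at 808 against 477 CPM, and the transcription factor Xbp1 at 248 against 144 CPM. Herpud1 and Ddit3 were the 2 below 0, with log2 ratios of -0.44 and -0.16. The Agrp and Npy neurons were also the deeper cells. With all cells thinned to 5000 UMIs, 13 of the 16 genes were above 0 with a median of 0.66, and against other neurons of at least 15000 UMIs, 14 were above 0 with a median of 0.62. Manf alone passed 2-fold in both.

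Receptors for other transmitters and hormones were mostly at or below the level of other neurons. Of 18 subunits of glutamate and GABA-A receptors, 0 were at least 2-fold higher and 4 were lower. Among the latter, Gabra3 was at 16.8 against 50.3 CPM, with a log2 ratio of -1.17, and Grin2b at 79.2 against 192 CPM, a level 2.43-fold lower (1.94 to 3.07). Gabre was at 102 against 48.9 CPM with a log2 ratio of 0.92 (1.005 without the 7 members with at least 20 Sst UMIs). Of 11 receptors for monoamines, opioids, cannabinoids and somatostatin, 4 were lower and 0 higher. After thinning to 5000 UMIs, 5 of them had enough UMIs and 1, Oprk1, was lower. The kappa opioid receptor Oprk1 had 2 UMIs against 228, and the serotonin receptor Htr2c had 0 against 56, at least 3.94-fold lower, with a log2 ratio of -1.07 that was -0.85 against the other neurons of at least 15000 UMIs. The somatostatin receptors Sstr1 and Sstr2 were the other 2, and Sstr2 had a log2 ratio of -1.18 that was -0.93 without barcode number 3.

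Of 6 nuclear receptors for steroids and thyroid hormone, 2 were at least 2-fold lower. Esr1, the oestrogen receptor, had 3 UMIs against 186, and Thrb had 3 against 235. Nr3c1, the glucocorticoid receptor, was at 137 against 76.0 CPM with a log2 ratio of 0.77. Of 14 ion channel genes, only Trpc5 passed 2-fold, at 8.38 against 44.6 CPM, while after thinning 3 of 8 were lower. The ATP-sensitive channel genes Kcnj11 and Abcc8 had 0 UMIs in the 58 cells, so their expression was not detectable at this depth.

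Genes known from the literature as enriched in Agrp neurons are no independent list, since they were chosen with that knowledge. Of 8 with enough UMIs, 5 were at least 2-fold higher (Acvr1c, Gm8773, Npy2r, Otp and Serpina3n) and 1, Sst, was lower. Serpina3n, a secreted protease inhibitor, was at 231 CPM (203 to 262) against 13.4 CPM (10.4 to 16.9), a ratio of 17.3 (13.2 to 23.0). Its relatives Serpina3c and Serpina3i had 12 and 10 UMIs in the members and 0 in the other neurons. The Serpina3 genes are near copies of each other, so the split of reads among them is uncertain.

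Gm8773, a predicted gene (ENSMUSG00000073234, chr5:5573799-5576203, plus strand), was almost absent from the other neurons. It had 134 UMIs in 35 of the 58 cells, at 0 to 15 UMIs per cell and a median of 1, and 3 UMIs in the 379 other neurons, a ratio of 212 (71.0 to 1040). In the 4 barcode numbers it was at 172, 102, 106 and 123 CPM. Oligodendrocytes had 0.639 CPM. Alkal2, a secreted ligand of the receptor Alk, was similar in kind, with 65 UMIs in 27 cells against 7 in the other neurons, a ratio of 44.0 (20.2 to 114).

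Sst divided the members. 7 of the 58 cells had at least 20 Sst UMIs, from 22 to 246 with a median of 36, and the other 51 had at most 7. This limit of 20 was set after the values were seen. The 7 cells came from all 4 barcode numbers, and the Sst level of the 51 cells, 37.1 CPM, was near the 26.4 CPM of oligodendrocytes. 0 of the 7 cells were called doublets.

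Agrp and Npy chose the cells, so their levels in the 7 Sst-positive cells and the 51 are a description. Agrp was at 11255 CPM (10687 to 11845) in the 7 cells and 11652 CPM (11435 to 11872) in the 51, a ratio of 0.966 (0.914 to 1.02). Npy was at 11752 CPM against 21424 CPM, a level 1.82-fold lower (1.73 to 1.92). By barcode number, Npy in the 7 cells was at 4608, 11731, 16396 and 5154 CPM, from 1, 2, 3 and 1 cells. The ranges over cells overlapped for both genes, with Npy at 86 to 436 UMIs in the 7 cells and 96 to 988 in the 51.

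Gm8773 had 0 UMIs in the 7 cells and 142 CPM (119 to 168) in the 51, at least 6.20-fold higher in the latter. Acvr1c was at 76.5 CPM (36.7 to 141) in the 7 and 246 CPM (215 to 280) in the 51. Cartpt was at 53.5 CPM (21.5 to 110) against 391 CPM (352 to 433), a level 7.31-fold lower (3.51 to 18.3). Otp did not follow, at 642 CPM (512 to 795) against 587 CPM (539 to 638). The 3 Sst-rich neurons just outside the rule, with high Agrp or high Npy alone, had 15, 13 and 6 Otp UMIs. They had 0 Gm8773 UMIs, as did the other cells just outside the rule, whether rich in Sst or not. With 7 cells from a pool of mice, how far single animals set these values was not tested.

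**Figure D4:**
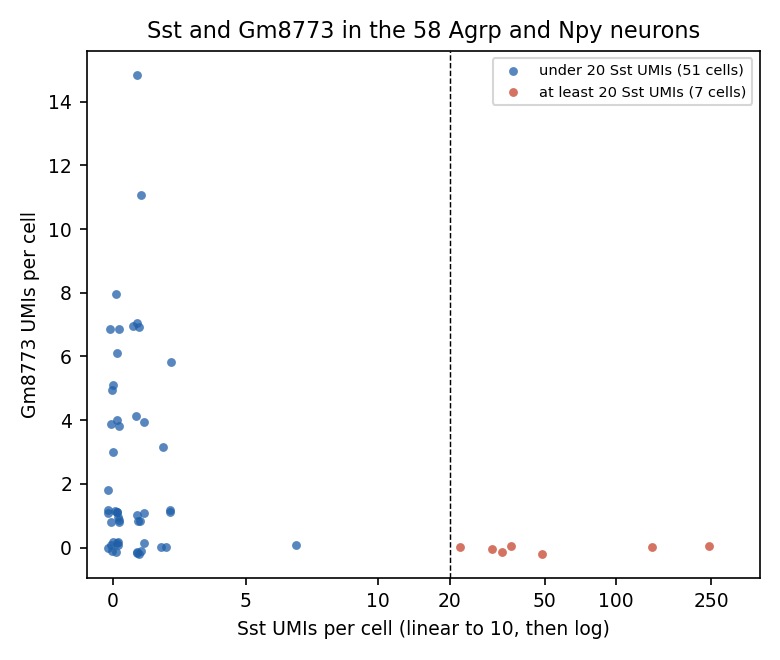
Sst UMIs (horizontal axis, linear to 10 and logarithmic above) against Gm8773 UMIs (vertical axis) in each of the 58 Agrp and Npy neurons, with a small jitter. The dashed line marks 20 Sst UMIs. All 7 cells to its right have 0 Gm8773 UMIs, and cells to its left have 0 to 15.

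Immediate early genes, which neurons switch on when they are active, varied widely between barcode numbers. Over all 58 cells, 0 of 10 tested genes passed 2-fold against the other neurons, with a median log2 ratio of 0.15. Without number 3, however, Fos, Btg2 and Junb passed it (log2 ratios of 1.50, 1.27 and 1.09), and without number 4, Fos, Btg2 and Jun (1.46, 1.23 and 1.03). Without number 1, Nr4a1 was lower at -1.30, and the log2 ratio of Junb turned from 0.47 to -0.46. Fos also passed 2-fold without the 7 Sst-rich cells (1.02) and after thinning to 5000 UMIs (1.001), where Egr1 was lower at -1.21.

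Fos was at 176 CPM (128 to 236) and 175 CPM (119 to 249) in the Agrp and Npy neurons of numbers 1 and 2, and at 10.6 CPM (2.89 to 27.1) and 18.6 CPM (6.03 to 43.4) in those of numbers 3 and 4. The first pair was high and the second low, with no overlap of the intervals. In number 1, 8 of 14 cells held 44 Fos UMIs, with 15 in the highest, and in number 3, 4 of 20 cells held 4 UMIs. Without the highest cell of each number, the levels were 126, 146, 8.36 and 12.1 CPM.

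The other neurons had the opposite order of Fos, at 15.3, 7.49, 48.9 and 57.8 CPM in numbers 1 to 4. Btg2 followed Fos in the Agrp and Npy neurons, at 128, 130, 18.5 and 18.6 CPM, and was at 27.5, 21.2, 29.7 and 35.4 CPM in the other neurons. Junb was at 256, 124, 26.5 and 40.9 CPM, and 30 of its 64 UMIs in number 1 came from 1 cell, without which that value was 148 CPM. Jun and Jund did not share this order, with Jun at 116, 204, 249 and 186 CPM and Jund at 755, 769, 781 and 624 CPM. No feeding state was read from these values, because the numbers were tied to none.

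**Figure D5:**
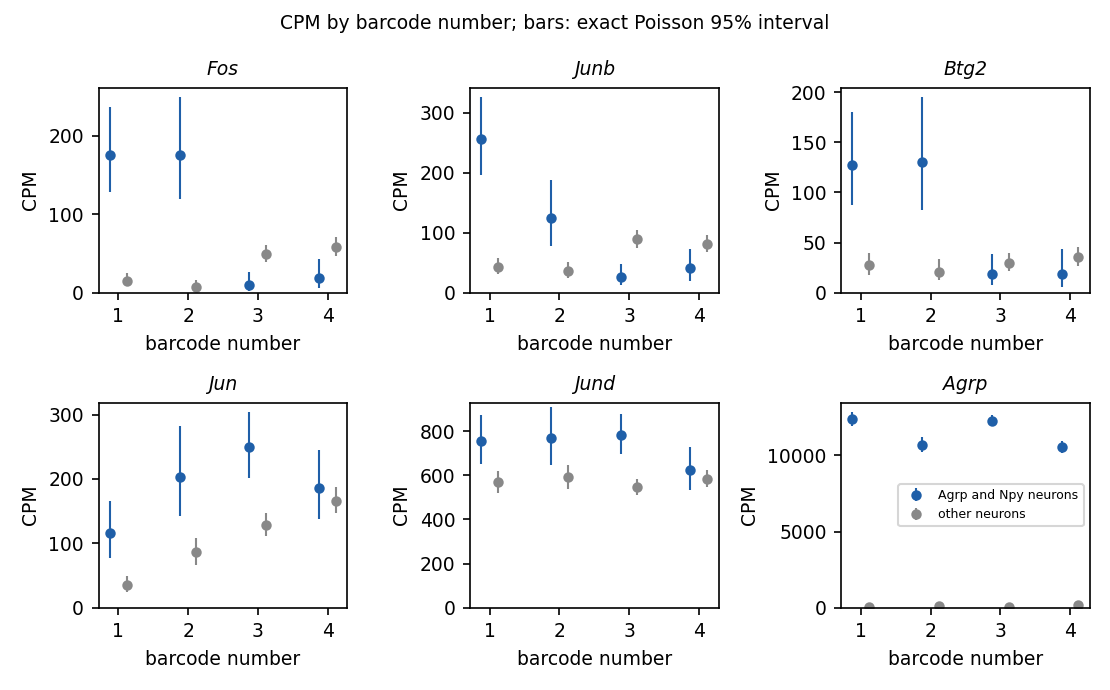
CPM of 5 immediate early genes and of Agrp (vertical axes, each from 0) by barcode number (horizontal axes) in the Agrp and Npy neurons (blue) and the other neurons (grey); bars are exact Poisson intervals at the 95% level. Fos and Btg2 are high in blue for numbers 1 and 2 only, at 128 CPM or more, while Jund and Agrp stay within narrower ranges.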

How the data were processed

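The authors mapped reads to mm10 and made UMI counts with Cell Ranger 2.0, and the deposited matrix holds the raw counts for 5982 cells and 27998 genes, without normalization. 4 libraries are listed as 32 sample records, which are lanes and index parts and were not taken as replicates. Gene identifiers were matched to symbols and positions for 27645 genes in GENCODE vM21 (GRCm38). 0 columns of values went unused.

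UMIs were summed over the cells of a group and scaled to 1000000 UMIs (CPM). No cell was removed for depth. Shares have exact Clopper-Pearson intervals, CPM exact Poisson intervals and ratios of CPM exact conditional intervals, all at the 95% level. Genes with at least 50 UMIs over both groups were compared, without the 7 genes of the rule. Differences were expressed as log2 ratios with a pseudocount of 10 CPM, and a count of 0 was read as a limit of 3 counts. Shares of cells with a UMI were compared after each cell had been thinned to 5000 UMIs, which left out 0 Agrp and Npy neurons, 2 other neurons and 105 oligodendrocytes. Doublets were called with Scrublet within each barcode number, which marked 0.836% of cells. The steps were tested on simulated data.

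Genes named for their size of difference are the 20 highest with at least 50 UMIs in the members and the 10 lowest with at least 50 CPM in other neurons, with the same direction within every barcode number. The 10 lowest were Tac2, Avp, Ghrh, Crabp1, Tac1, Gal, Vsnl1, Cox6a2, Slc17a6 and Calb1. The members and the gene lists were chosen with earlier results of these data known. The marker gates for oligodendrocytes (30 UMIs), microglia and ependymocytes (20 UMIs) and the limit of 20 Sst UMIs were set after the values were seen. A planned comparison of refed with fasted cells was not made, because cells could not be tied to libraries. Python 3.11.15, numpy 2.4.6, scipy 1.17.1, pandas 2.3.3 and scanpy 1.11.5 were used. Values of some listed genes are not reported here.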

Additional observations from a re-analysis of the deposited data

How the results depend on the processing

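All 30 genes named for their size of difference stayed past 2-fold in the same direction under 16 alternatives. They were chosen for extreme ratios and for the same direction within every barcode number, and the alternatives reuse the same cells. Their stability therefore follows largely from the choice. Among the listed genes, Nts turned from 0.49 to -0.80 (log2) without barcode number 3. Junb turned from 0.47 to -0.46 without number 1, and others near 0 also changed sign. Vip, far from 0 at -4.29, turned to 0.23 against the other neurons of at least 15000 UMIs, where it had too few UMIs to be counted. With a pseudocount of 1 CPM, 155 genes were higher and 705 lower in place of 78 and 302, and 17 in place of 11 listed genes were higher. A minimum of 50 UMIs of the neuronal genes left 11 cells in place of 58. The share of all Agrp and Npy UMIs in these neurons was 78.9% and 78.9% with at least 100 UMIs of each, 86.0% and 84.0% without doublets, and 90.5% and 88.4% with no neuron threshold. With each barcode number left out in turn, it ran from 82.2 to 85.4% for Agrp and from 81.7 to 84.0% for Npy. In these runs, 71 to 81 genes were higher and 314 to 322 lower. Dropping the neuron threshold, leaving out Sst-rich members, using other neurons of at least 15000 UMIs, and leaving out barcode numbers for the shares were chosen after seeing the data. No paired analysis was possible because no label ties the cells or their barcode numbers to libraries, and replicate numbers therefore pair nothing here. 58 cells limit precision: genes such as Lepr and Ghsr rest on 21 UMIs each, and the spread between mice is not known.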

Other observations

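Npy had a low signal in ependymocytes that Agrp did not share. The 219 cells with at least 20 UMIs of Ccdc153, Tmem212 and Rarres2 together had 309 CPM of Npy and 44.8 CPM of Agrp, while mature oligodendrocytes had 68.1 and 32.6 CPM and microglia 74.9 and 38.3 CPM. Npy was seen in 62.6% of the ependymocytes (median depth 4867 UMIs) and Agrp in 19.2%, against 36.3% and 19.3% of oligodendrocytes. No ependymocyte had more than 10 Npy UMIs, and without the highest cell the level was 302 CPM. The cause was not tested.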
